A study of Mus musculus with 2 samples.

Results

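Transcripts of 50 genes that build the kinetochore, cohesin and condensin were measured in mouse embryonic forebrain, out of 55536 genes in the GENCODE M21 tables. The genes were taken as a named list of subunits and regulators, found by symbol in both libraries, and all 50 were present. The libraries were polyA-selected RNA from forebrain of B6NCrl embryos of mixed sex at embryonic day 12.5. Each library was a pool of animals, 120 embryos in pool 1 and 68 in pool 2, and was made from 10 ng of RNA with ERCC spike-in RNAs, which are synthetic RNAs of known sequence. Both pools were described as healthy, no allele or agent was given for either, and the labels give 1 group with no treatment or genotype to compare. Values below are therefore levels and their spread over the pools, and no test between conditions was possible. An exact two-sided sign-flip test over 2 pools cannot go below p = 0.5.

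The kinetochore is the protein assembly that forms on centromeric chromatin in mitosis and attaches each chromatid to spindle microtubules. Its inner layer reads nucleosomes that carry the histone variant CENP-A, its outer layer holds the microtubule-binding Ndc80 complex, and the spindle checkpoint delays anaphase until attachment is complete. Cohesin is a ring-shaped complex that holds sister chromatids together and extrudes chromatin loops in interphase, and condensin compacts chromosomes as cells enter mitosis. At this age the forebrain holds a ventricular zone of dividing neural progenitors beside young neurons that have left the cell cycle. In humans, variants of CENPE, NCAPD2, NCAPD3 and NCAPH are known causes of primary microcephaly, and variants of NIPBL, SMC1A, SMC3 and RAD21 of Cornelia de Lange syndrome.

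Promoter sequences of the members were taken from RefSeq (GRCm38.p6, 250 bases before to 50 bases after each start site) and matched for 44 members, which had 49 windows. Spc24, Nsl1, Rad21, Stag2, Nipbl and Smc4 had none in the table used. Promoters of genes expressed in mitosis often carry a cell cycle genes homology region (CHR), which is bound by the DREAM and MuvB complexes, and CCAAT boxes, which are bound by NF-Y. The 6 windows below show members of different roles. Cenpa, Spc25, Ttk and Smc2 had both elements, while Zwint and Smc1a had CCAAT boxes and no CHR match. Each is written 5′ to 3′ on the gene's own strand, and capitals mark every CHR match (TTTGAA or TTCGAA) and every CCAAT match on either strand. The windows lie at chr5:30666636-30666935 on the plus strand for Cenpa, chr2:69206164-69206463 on the minus strand for Spc25, chr9:83834439-83834738 on the plus strand for Ttk, chr4:52438971-52439270 on the plus strand for Smc2, chr10:72654596-72654895 on the plus strand for Zwint and chrX:152016178-152016477 on the plus strand for Smc1a.
Cenpa: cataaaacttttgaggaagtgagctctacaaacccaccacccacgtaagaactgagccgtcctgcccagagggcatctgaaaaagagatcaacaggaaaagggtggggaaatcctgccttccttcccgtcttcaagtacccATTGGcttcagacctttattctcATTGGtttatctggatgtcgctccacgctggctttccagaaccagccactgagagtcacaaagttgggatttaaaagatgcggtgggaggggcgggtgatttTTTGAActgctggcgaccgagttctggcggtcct
Spc25: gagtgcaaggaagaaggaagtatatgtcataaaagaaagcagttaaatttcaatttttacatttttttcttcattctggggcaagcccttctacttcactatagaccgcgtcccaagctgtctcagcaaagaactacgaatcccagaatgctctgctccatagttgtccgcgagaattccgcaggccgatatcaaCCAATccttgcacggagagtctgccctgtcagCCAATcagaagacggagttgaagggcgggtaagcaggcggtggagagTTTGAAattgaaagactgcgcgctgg
Ttk: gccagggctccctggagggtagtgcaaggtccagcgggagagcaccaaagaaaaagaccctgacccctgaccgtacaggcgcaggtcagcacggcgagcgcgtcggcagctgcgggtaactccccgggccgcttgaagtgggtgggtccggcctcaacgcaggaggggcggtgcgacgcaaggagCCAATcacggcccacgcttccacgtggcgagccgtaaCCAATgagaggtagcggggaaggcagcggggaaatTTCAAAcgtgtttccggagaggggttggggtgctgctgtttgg
Smc2: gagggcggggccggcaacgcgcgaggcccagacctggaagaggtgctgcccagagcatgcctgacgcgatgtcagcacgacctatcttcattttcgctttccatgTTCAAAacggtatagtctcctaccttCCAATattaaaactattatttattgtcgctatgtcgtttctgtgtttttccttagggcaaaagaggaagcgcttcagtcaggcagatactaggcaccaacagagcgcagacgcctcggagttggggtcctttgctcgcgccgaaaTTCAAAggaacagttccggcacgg
Zwint: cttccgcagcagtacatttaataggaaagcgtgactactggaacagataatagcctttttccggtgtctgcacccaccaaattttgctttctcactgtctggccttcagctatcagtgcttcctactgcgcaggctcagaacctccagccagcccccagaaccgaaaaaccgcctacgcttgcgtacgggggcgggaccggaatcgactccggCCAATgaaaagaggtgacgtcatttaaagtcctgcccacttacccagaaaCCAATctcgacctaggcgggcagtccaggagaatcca
Smc1a: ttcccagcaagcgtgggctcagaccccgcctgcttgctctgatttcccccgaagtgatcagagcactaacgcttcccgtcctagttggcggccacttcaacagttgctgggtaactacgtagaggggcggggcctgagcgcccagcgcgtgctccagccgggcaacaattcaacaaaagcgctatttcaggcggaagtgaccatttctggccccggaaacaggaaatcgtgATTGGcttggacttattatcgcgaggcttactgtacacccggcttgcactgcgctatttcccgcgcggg

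All 50 members were detected, reaching 1 TPM or more in each of the libraries, where 58.9% of 22028 protein-coding genes were. TPM is an abundance per transcript length that sums to the same total in each library. The median over members of the mean TPM was 51.7, against 4.08 for all protein-coding genes and 21.9 for the 12966 detected ones. Of the members, 46 lay above that last median. A mean TPM of at least 10 was reached by all 50 members and by 41.0% of protein-coding genes. Levels spanned 26.2-fold, with 11 members at 100 TPM or more, 37 between 20 and 100 TPM, and only Nipbl and Cenpo under 20 TPM. The members held 0.396% of all TPM in pool 1 and 0.379% in pool 2, from 199221 and 198364 counts in pools 1 and 2. Counts per member and library ran from 570 to 12592.

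**Figure D1:**
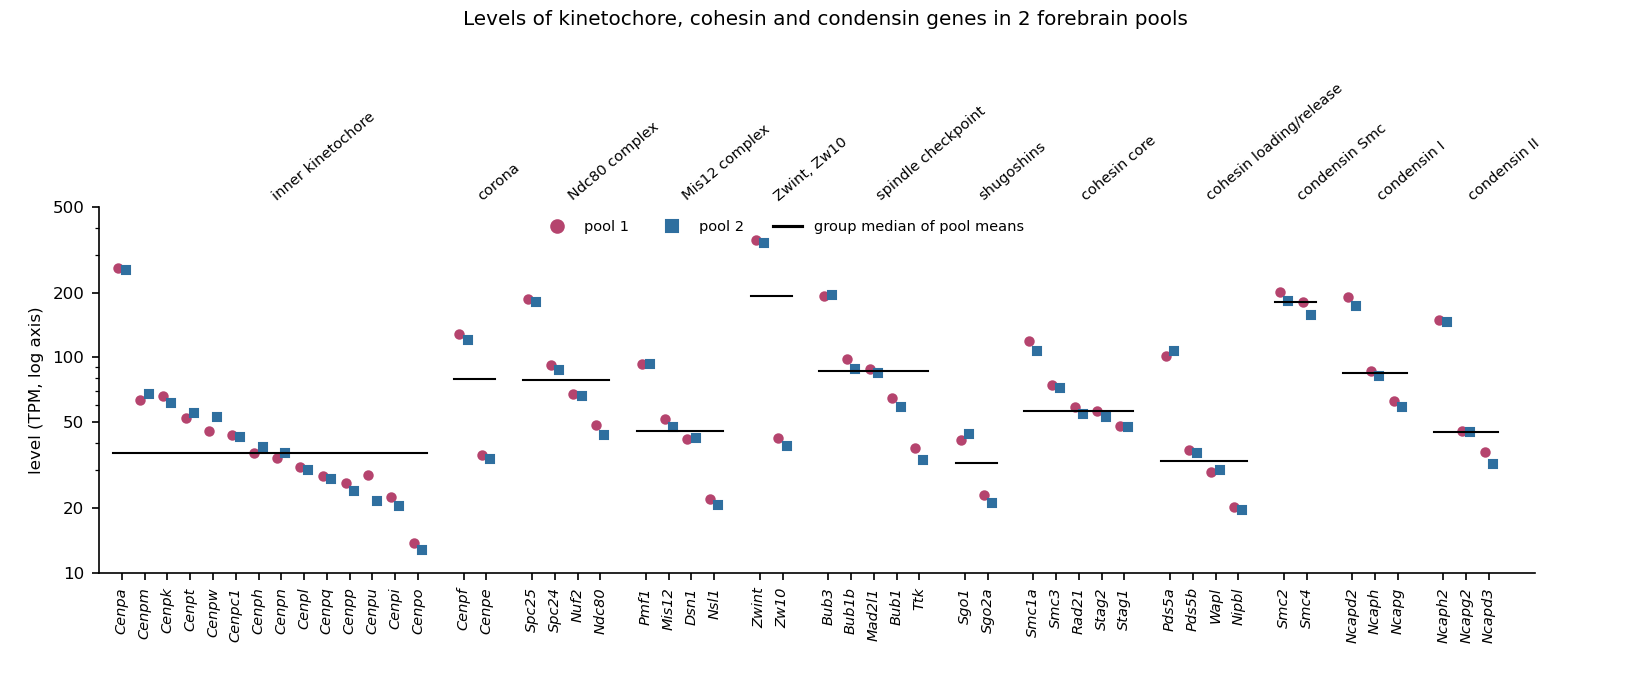
TPM of each of the 50 members in pool 1 and pool 2 on a log axis, grouped by complex or role, each point being 1 library. Zwint and Cenpa lie highest and Cenpo lowest, and the points of the pools nearly coincide for most members.

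The tissue label was checked against marker genes. All 6 forebrain markers were detected, among them Lhx2, a transcription factor of the cortical primordium, at 153 TPM in pool 1 and 176 in pool 2, and Dlx2, a transcription factor of the ventral forebrain, at 104 TPM in pool 1 and 67.2 in pool 2. Of 4 markers of midbrain and hindbrain, 0 were detected, and Hoxa2 and En2 were listed at 0 in both pools. Markers of other cells were present. The 4 red cell markers summed to 5910 TPM in pool 1 and 7994 in pool 2, and the 4 mesenchyme markers to 467 TPM in pool 1 and 548 in pool 2. Both endothelium markers were detected, with sums of 28.7 TPM in pool 1 and 26.9 in pool 2, as were 2 of the 3 microglia and macrophage markers, with sums over all 3 of 19.5 TPM in pool 1 and 21.9 in pool 2. No defining marker of these 4 cell types was at 0, and their part in the members' levels was not tested.

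The inner kinetochore was represented by 14 genes with a median of 36.1 TPM and a spread of 19.4-fold. Cenpa (ENSMUSG00000029177.9, chromosome 5, 30666777 to 30674830, plus strand), the centromeric variant of histone H3, had 260.1 TPM in pool 1 and 255 in pool 2, or 257 ± 3.72 TPM (SD, n = 2), the highest gene-level value of this layer. Over coding transcripts alone it had 64.5 TPM in pool 1 and 71.4 in pool 2, close to Cenpm at 62.0 TPM in pool 1 and 66.6 in pool 2. At gene level Cenpa ranked at the 95.9th percentile of detected protein-coding genes. Next were Cenpm at 63.5 TPM in pool 1 and 67.6 in pool 2 and Cenpk at 66.4 TPM in pool 1 and 61.3 in pool 2. These are subunits of the CENP-H, I, K and M module, and their order differed between the pools. With the M4 tables Cenpk averaged 38.3 TPM, below Cenph at 39.2, Cenpt at 49.6 and Cenpw at 51.6. With M21 the partners of the same module were lower, with Cenph at 36.1 TPM in pool 1 and 38.3 in pool 2 and Cenpi at 22.5 TPM in pool 1 and 20.5 in pool 2.

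Cenpt and Cenpw encode histone-fold proteins that form a DNA-binding pair. Cenpt had 52.3 TPM in pool 1 and 55.3 in pool 2, and Cenpw had 45.8 TPM in pool 1 and 52.9 in pool 2. Their ranges over the pools overlapped, with Cenpt higher within each pool. With the M4 tables Cenpt averaged 49.6 TPM, below Cenpw at 51.6. Over coding transcripts it averaged 42.1 TPM, below Cenpw at 49.3. Cenpc1, whose product (CENP-C) links the CENP-A nucleosome to the Mis12 complex, had 43.4 TPM in pool 1 and 42.6 in pool 2. Cenpn, which reads the CENP-A nucleosome, had 33.95 TPM in pool 1 and 35.9 in pool 2, and its partner Cenpl had 31.0 TPM in pool 1 and 30.0 in pool 2. Of the CENP-O module, 4 subunits were members. A further subunit, Itgb3bp (CENP-R), read from the list of 16 further kinetochore and centromere genes, had 44.7 TPM in pool 1 and 42.5 in pool 2, above these 4. Cenpq had 28.3 TPM in pool 1 and 27.1 in pool 2, Cenpp had 26.0 TPM in pool 1 and 24.04 in pool 2, and Cenpo had 13.8 TPM in pool 1 and 12.8 in pool 2, the lowest level of the 50 members. Cenpu had 28.4 TPM in pool 1 and 21.5 in pool 2, a coefficient of variation of 19.7% that was the highest among members, where the median member had 4.04%.

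In the outer layer, Spc25 and Spc24, the pair of the Ndc80 complex that docks on the inner kinetochore, lay above Nuf2 and Ndc80, the pair that binds microtubules. Spc25 had 188 TPM in pool 1 and 182 in pool 2, and Spc24 had 91.9 TPM in pool 1 and 87.8 in pool 2. Nuf2 had 67.3 TPM in pool 1 and 66.0 in pool 2, and Ndc80 had 48.8 TPM in pool 1 and 43.5 in pool 2. The ranges of the 4 subunits did not overlap, and Spc25 exceeded Ndc80 by 1.98 ± 0.08 on the log2(TPM + 1) scale (SD, n = 2 pools), although these proteins assemble into 1 complex.

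The Mis12 complex, which joins the inner and outer layers, had a median of 45.7 TPM over its 4 genes. Pmf1 was highest at 93.5 TPM in pool 1 and 93.02 in pool 2, Mis12 had 51.6 TPM in pool 1 and 47.5 in pool 2, and Dsn1 had 41.7 TPM in pool 1 and 42.1 in pool 2. Nsl1 was lowest at 21.9 TPM in pool 1 and 20.7 in pool 2. Of the large corona proteins, Cenpf, which helps tether dynein regulators, had 128 TPM in pool 1 and 120.1 in pool 2. Cenpe, a kinesin motor that moves chromosomes to the spindle equator, had 35.3 TPM in pool 1 and 33.6 in pool 2.

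The highest member was Zwint (ENSMUSG00000019923.14, chromosome 10, 72654845 to 72674964, plus strand), with 352 TPM in pool 1 and 342 in pool 2, or 347 ± 7.6 TPM (SD, n = 2), at the 97.3rd percentile of detected protein-coding genes. Its product binds the scaffold Knl1 and recruits the complex of Rod, Zw10 and Zwilch, and it is also known as a partner of the synaptic protein SNAP25. Zw10 itself, which also acts in vesicle transport in interphase, had 42.2 TPM in pool 1 and 38.8 in pool 2. Other genes of the same branch, read from a list of 16 further kinetochore and centromere genes, were also lower than Zwint. Knl1 had 55.4 TPM in pool 1 and 66.1 in pool 2, Kntc1 (Rod) had 40.4 TPM in pool 1 and 38.7 in pool 2, and Zwilch had 26.1 TPM in pool 1 and 24.9 in pool 2. Kntc1 averaged 39.5 TPM with M21 and 18.4 TPM with the M4 tables, with counts only 1.01 times as high with M21.

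Spindle checkpoint genes had a median of 86.7 TPM. Bub3, a repeat protein that carries Bub1 and BubR1 to kinetochores, was highest at 193 TPM in pool 1 and 195 in pool 2. Bub1b, which encodes BubR1 of the mitotic checkpoint complex, had 98.5 TPM in pool 1 and 87.9 in pool 2. Mad2l1 (Mad2), the subunit that binds Cdc20, had 88.8 TPM in pool 1 and 84.6 in pool 2. Their ranges over the pools overlapped, with Bub1b higher within each pool. With the M4 tables Bub1b averaged 98.2 TPM, below Mad2l1 at 106. Over coding transcripts it averaged 89.4 TPM, above Mad2l1 at 62.2. Bub1, a kinase that marks the inner centromere, had 65.1 TPM in pool 1 and 59.0 in pool 2. Ttk (Mps1), the kinase at the head of the checkpoint, was lowest at 38.1 TPM in pool 1 and 33.3 in pool 2. The shugoshins protect centromeric cohesin. Sgo1 had 41.4 TPM in pool 1 and 44.1 in pool 2, and Sgo2a had 22.9 TPM in pool 1 and 20.98 in pool 2. The mean TPM of Sgo1 and Sgo2a differed 1.95-fold at gene level but only 1.03-fold over coding transcripts. Over coding transcripts the order of Sgo1 and Sgo2a differed between the pools.

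Cohesin core genes lay within 2.37-fold of each other, or 2.54-fold over coding transcripts. Smc1a and Smc3 encode the ATPase arms of the ring, with Smc1a at 119.5 TPM in pool 1 and 108 in pool 2 and Smc3 at 74.2 TPM in pool 1 and 71.9 in pool 2. Rad21, the kleisin that closes the ring, had 58.6 TPM in pool 1 and 54.4 in pool 2. The alternative subunits Stag2 and Stag1 had 56.3 and 48.3 TPM in pool 1 and 52.6 and 47.8 TPM in pool 2. Stag2 exceeded Stag1 by 0.18 ± 0.06 on the log2(TPM + 1) scale (SD, n = 2 pools), a difference of 0.22 in pool 1 and 0.14 in pool 2, and by 0.79 when only coding transcripts were counted. The cohesin core as a whole lay 0.71 ± 0.03 above the inner kinetochore on the same scale.

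At gene level, regulators of cohesin were mostly lower than its core. Nipbl, which loads cohesin and drives loop extrusion, had 20.2 TPM in pool 1 and 19.6 in pool 2, the second lowest level of the 50 members. Wapl, which releases cohesin, had 29.3 TPM in pool 1 and 30.0 in pool 2. Of the Pds5 scaffolds, Pds5b had 37.0 TPM in pool 1 and 36.1 in pool 2 while Pds5a had 101 TPM in pool 1 and 107 in pool 2. Pds5a exceeded Pds5b by 1.48 ± 0.08 on the log2(TPM + 1) scale (SD, n = 2 pools). The size of this difference depended on the annotation release, as described further on. With the M4 tables Pds5a averaged 49.7 TPM, still above Pds5b at 37.0. Over coding transcripts Pds5a averaged 75.3 TPM, above every core gene. Pds5b at 33.4 TPM and Wapl at 29.7 then lay above Stag1 at 28.4, and Nipbl at 19.9 lay below the whole core. In a list of 6 genes that establish, load or position cohesin, all 6 were detected with a median of 38.0 TPM. Ctcf, the insulator protein that stops loop extrusion, was its highest at 129 TPM in pool 1 and 128 in pool 2, and Hdac8, which deacetylates Smc3, its lowest at 8.64 TPM in pool 1 and 7.33 in pool 2.

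Smc2 and Smc4, the ATPase pair shared by both condensins, had a median of 180.2 TPM, above the 56.5 TPM of the cohesin core. Over coding transcripts these medians were 80.2 and 50.04 TPM, and Smc2 lay below Smc3 and Rad21. Most of the coding TPM of Smc4 fell on 1 transcript of 1163 bases, as described further on. Smc2 had 201 TPM in pool 1 and 182 in pool 2, and Smc4 had 181 TPM in pool 1 and 157 in pool 2. The subunits specific to condensin I, which reaches chromosomes after the nuclear envelope breaks down, were Ncapd2 at 192 TPM in pool 1 and 173 in pool 2, Ncaph at 86.4 TPM in pool 1 and 82.1 in pool 2, and Ncapg at 62.6 TPM in pool 1 and 59.0 in pool 2. Of condensin II, which is nuclear throughout the cycle, Ncaph2 had 149 TPM in pool 1 and 146 in pool 2, Ncapg2 had 45.4 TPM in pool 1 and 45.0 in pool 2, and Ncapd3 had 36.3 TPM in pool 1 and 32.1 in pool 2.

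Averaged over 3 subunits each, condensin I exceeded condensin II by 0.67 ± 0.02 on the log2(TPM + 1) scale (SD, n = 2 pools), a ratio of 1.59. The counterparts did not all go the same way. Ncapd2 exceeded Ncapd3 by 2.38 ± 0.02 and Ncapg exceeded Ncapg2 by 0.42 ± 0.05, whereas Ncaph minus Ncaph2 was -0.80 ± 0.03 on that scale. Over coding transcripts the same differences were 2.31 ± 0.02, 0.93 ± 0.05 and -0.27 ± 0.04, in that order. With the M4 tables condensin I exceeded condensin II by 1.15 and Ncapg exceeded Ncapg2 by 1.46 ± 0.08 (SD, n = 2 pools). The Smc5/6 complex, the related complex of DNA repair, was detected in 6 of 6 genes with a median of 89.5 TPM with M21. Of these genes, Smc6 averaged 127 TPM with M21 but 33.9 TPM with M4, and its counts were 1.13 times as high with M21.

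Genes that act with the kinetochore in mitosis were detected throughout. The 16 further kinetochore and centromere genes had a median of 39.8 TPM, with Hjurp, the chaperone that deposits CENP-A, highest at 163.7 TPM in pool 1 and 163.6 in pool 2. The 9 chromosomal passenger and mitotic exit genes had a median of 129 TPM, among them Cdc20, the activator of the anaphase-promoting complex, at 239 TPM in pool 1 and 234 in pool 2 and Birc5 (survivin) at 229 TPM in pool 1 and 221 in pool 2. Espl1 (separase), the protease that cuts cohesin, had 33.0 TPM in pool 1 and 28.9 in pool 2. Of 6 paralogs that act in meiosis, only Rec8 and Stag3 passed the detection limit. Rec8, the meiotic kleisin, had 5.58 TPM in pool 1 and 6.67 in pool 2, and Stag3 had 4.08 TPM in pool 1 and 3.33 in pool 2. Meikin had 0 counts in both pools, so that levels of up to 0.104 TPM in pool 1 and 0.0996 in pool 2 remain possible by counting error alone.

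Between the pools, the members differed little. Expected counts were scaled by TMM, which assumes that most genes do not differ, and 42 of 50 members were higher in pool 1 by this scaling, but 5 of 50 when libraries were scaled to the ERCC spike-ins. Among the 9495 genes averaging 10 TPM or more, 58.5% were higher in pool 1 by TMM and 10.7% were by the ERCC totals. The difference between the members' shares and these has no test here. The median log2 ratio of pool 1 over pool 2 was 0.08 over the members and 0.02 over those genes. Scaling to the ERCC totals lowers every ratio by about the same amount, and these medians became -0.08 and -0.14. No member passed 0.32 in either direction on the log2 scale by TMM, the dashed limit in the plot of pool ratios, where 4.80% of genes did, made up of 1.92% of genes higher in pool 1 and 2.89% higher in pool 2. That limit was set when the members were already known to lie close between the pools. Their absence past it is therefore not a result about them. The median coefficient of variation of TPM was 4.04% for members and 3.94% for those genes. In pooled tissue, fewer cells of a type and less RNA per cell cannot be told apart. The red cell and mesenchyme sums given above were higher in pool 2. Dlx2 was higher in pool 1, with a log2 ratio of 0.66 by TMM, and Lhx2 higher in pool 2, with -0.20. The part of these markers' cells in these ratios was not tested.

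At the upper end stood Bub1b, with a log2 ratio of 0.19 and a 95% exact binomial counting interval of 0.14 to 0.24, followed by Ttk at 0.19 (0.10 to 0.28), Ndc80 at 0.18 (0.10 to 0.27), Ncapd3 at 0.18 (0.11 to 0.26) and Smc4 at 0.17 (0.12 to 0.22). These 5 were the members above 0 when scaled to the ERCC totals. By TMM, all 5 checkpoint genes, all 5 cohesin core genes and all 4 of the Ndc80 complex were above 0, but 2, 0 and 1 of them by the ERCC totals. Bub3 was close to 0 by TMM, with an interval of -0.04 to 0.04. At the lower end, Cenpw had a log2 ratio of -0.22 (-0.32 to -0.12), Nsl1 of -0.14 (-0.24 to -0.04), Cenpt of -0.13 (-0.22 to -0.04), Cenpm of -0.12 (-0.23 to 0.00) and Cenph of -0.05 (-0.19 to 0.09). The intervals cover counting error only, so an interval that leaves out 0 does not show a difference between conditions or animals.

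**Figure D2:**
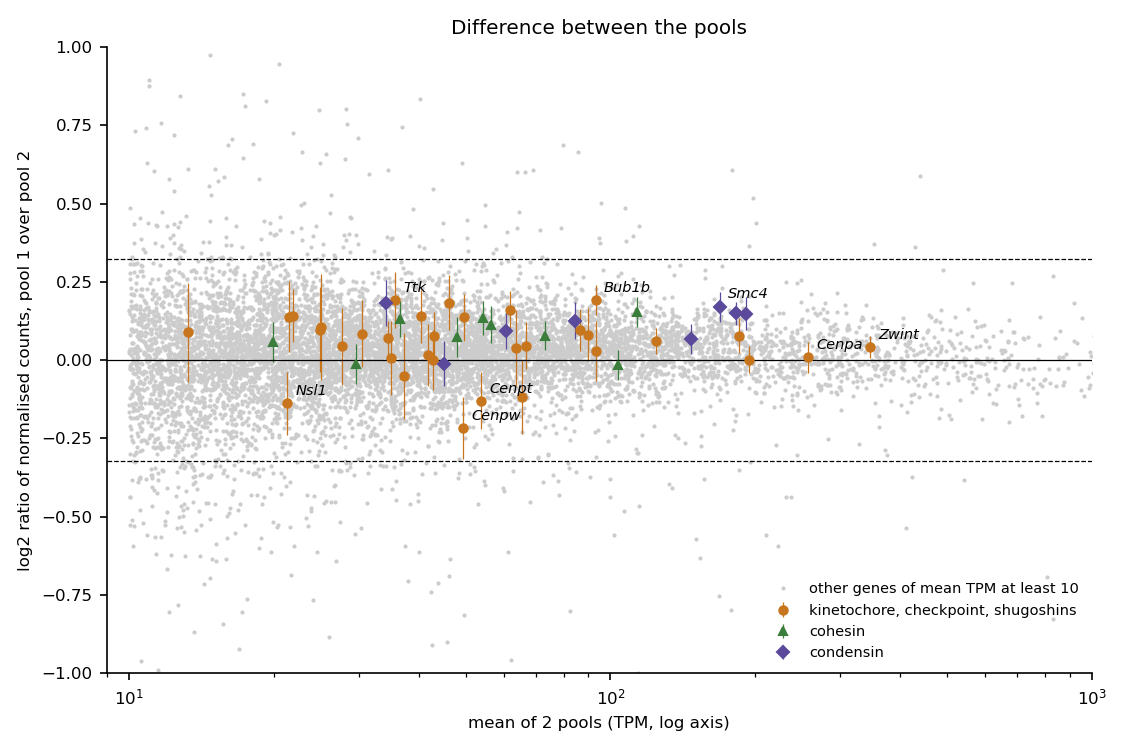
Log2 ratio of TMM-normalised counts, pool 1 over pool 2, against mean TPM on a log axis, for members in colour and other genes of mean TPM of at least 10 in grey, with dashed lines at 0.32 above and below 0, vertical bars for 95% counting intervals of members, and genes outside the axes not shown. Members lie inside the lines, mostly just above 0, with Cenpw lowest at -0.22.

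For 6 members the sign of the ratio differed between counts and TPM, namely Nsl1, Ncapg2, Sgo1, Bub3, Cenpn and Dsn1. The share of all genes that did so was not computed. In Nsl1 the short transcript Nsl1-201, of 608 bases, had 5.60 TPM in pool 1 and 2.78 in pool 2, while the long Nsl1-202 had 13.8 TPM in pool 1 and 15.8 in pool 2. Cenpu had a log2 ratio of 0.10 by counts and of 0.39 by TPM + 1. Its transcript Cenpu-208, of 357 bases, had 6.68 TPM in pool 1 and was listed at 0 in pool 2, from 36.6 estimated counts in pool 1 and none in pool 2. Short transcripts thus carried much TPM on few counts in both genes.

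Gene-level TPM also included transcripts that do not encode the protein. In the median member 91.1% of TPM fell on transcripts annotated as protein-coding, against 90.1% over 9014 protein-coding genes that averaged 10 TPM or more. Under 50% was coding in 4 of 50 members and in 10.4% of those genes. The transcript with the highest TPM was protein-coding in 47 members, a share not computed over all genes, and was not in Cenpa, Smc2 and Smc1a. For Cenpa it was Cenpa-202, annotated for nonsense-mediated decay, with 143 TPM in pool 1 and 139 in pool 2, 54.6% of the gene's TPM and 43.0% of its counts. All coding transcripts of Cenpa together had 64.5 TPM in pool 1 and 71.4 in pool 2.

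Smc2-203, a processed transcript of 643 bases, had 102 TPM in pool 1 and 92.8 in pool 2. It made up 50.7% of the TPM of Smc2 but 19.1% of its counts, so that coding transcripts held 27.9% of TPM and 73.5% of counts. Smc1a-206, annotated for nonsense-mediated decay, had 66.4 TPM in pool 1 and 57.4 in pool 2, 54.5% of the TPM of Smc1a. Counting only coding transcripts, Smc1a had 49.5 TPM in pool 1 and 46.0 in pool 2. The next smallest coding shares of TPM were 49.2% in Sgo1, 59.2% in Stag1, 62.0% in Cenpl, 62.1% in Ncapg2 and 62.7% in Cenpf. More orders of level turned on this. Over coding transcripts the mean TPM was 47.8 for Smc1a and 72.3 for Smc3, and 53.4 for Smc2 and 107 for Smc4, so that both pairs were in the opposite order to that at gene level. For Smc4, 94.7 of the 107 TPM fell on Smc4-206, annotated as coding but only 1163 bases long. The longer coding transcripts Smc2-201, of 5404 bases, and Smc4-201, of 4316 bases, had 31.7 and 12.1 TPM, in the gene-level order. By counts, Sgo1 was 91.1% and Cenpf 93.3% coding, and Cenpl was 53.5% coding. Smc4 was 63.3% coding by TPM and 47.3% by counts, since Smc4-207, annotated for nonsense-mediated decay, took 49.6% of them. Over all members, 26 had at least 90% of TPM on coding transcripts and 36 had at least 90% of counts on them. The shares of all genes past 90% were not computed, so these counts do not set the members apart. How reads were shared among transcripts is the authors' estimate, and these shares rest on it.

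**Figure D3:**
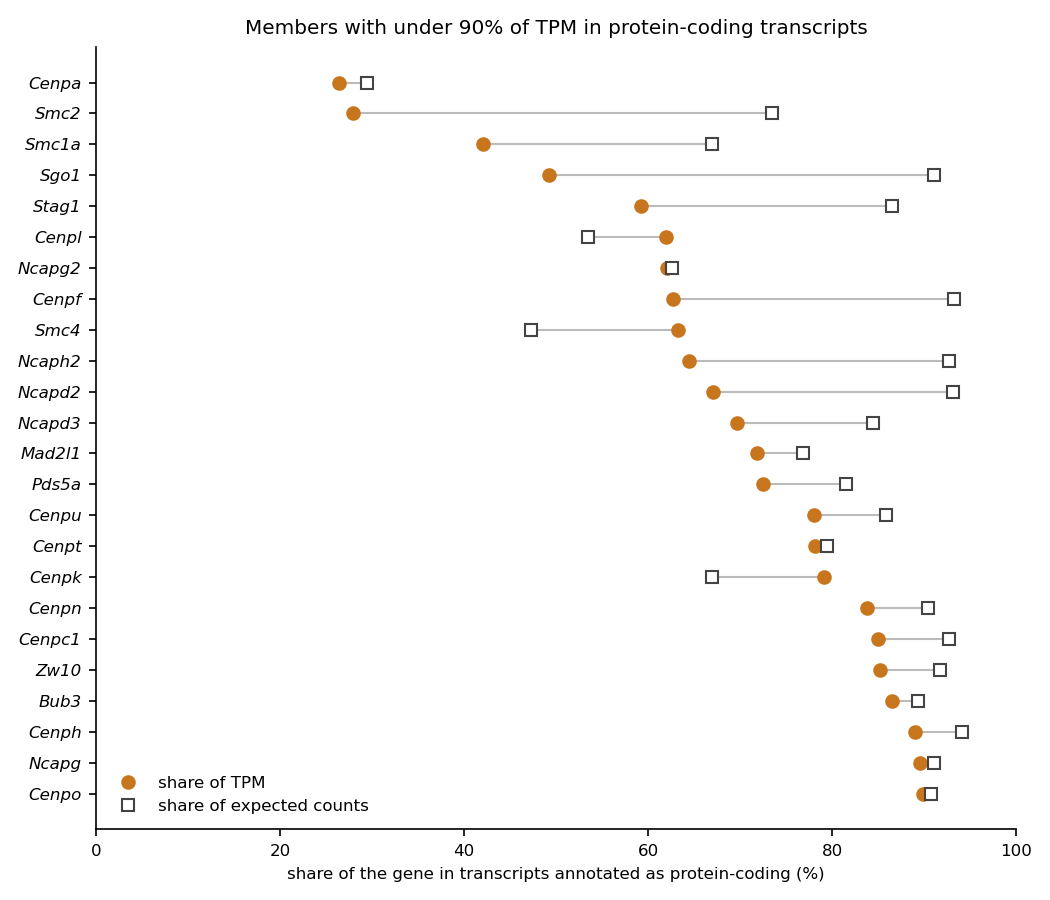
Share of each gene on protein-coding transcripts in percent (x axis), for the members with under 90% of TPM on them, as a mean over both pools, with filled circles for TPM and open squares for expected counts. Cenpa is low on both measures, Smc2 and Sgo1 are low by TPM and higher by counts, and Cenpl and Smc4 are lower by counts.

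Levels also moved with the annotation. Between releases M21 and M4, 3 of 50 members changed their mean TPM by over 1.5-fold, against 6.12% of 8968 protein-coding genes. The mean TPM of Pds5a was 104 with M21 and 49.7 with M4, a ratio of 2.09, and its counts were 1.70 times as high with M21. Ncapg2 had 45.2 TPM with M21 and 22.6 TPM with M4, a ratio of 2.00, with counts only 1.05 times as high. Cenpk had 63.8 TPM with M21 and 38.3 TPM with M4, a ratio of 1.67, and 41.3% of its TPM with M21 fell on Cenpk-207, which is 351 bases long, is annotated as coding and took 13.1% of its counts. Cenpm and Ncapd3 followed with ratios of 1.34 and 1.26. For 39 members the counts agreed within 5% between releases, a share that was not computed over all genes.

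**Figure D4:**
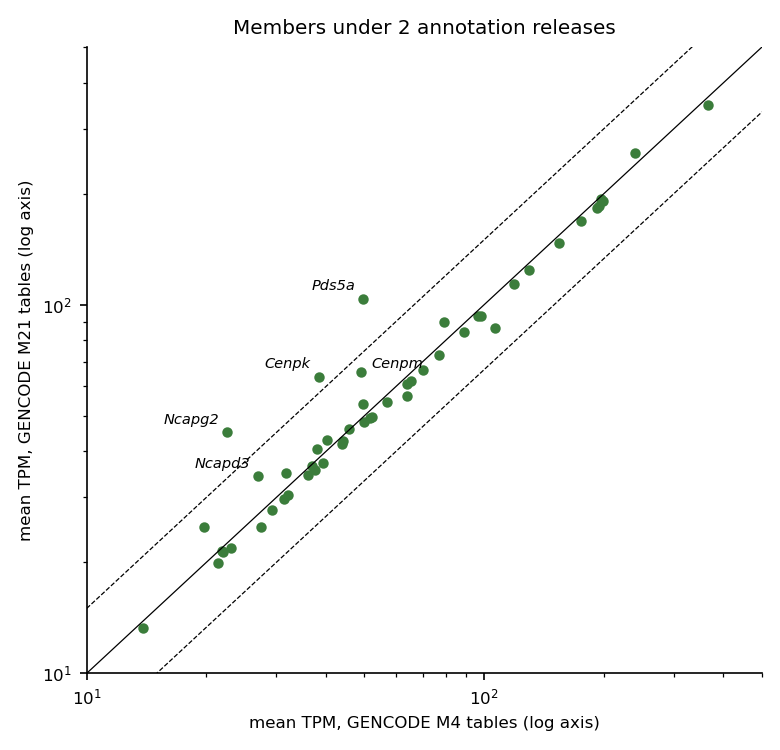
Mean TPM of each member with GENCODE M21 on the y axis and with M4 on the x axis, both on log scales, 1 point per member, with lines at equality and at 1.5-fold. Pds5a, Ncapg2 and Cenpk lie above 1.5-fold and the other members lie between the 1.5-fold lines.

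Some members share exons with a neighbour, and the strand setting of the counting is not known here. Exons of 13 members overlapped another gene, on the opposite strand in 12 of them. Among these were Cenpo with Adcy3 and Ptrhd1, Cenpp with Ippk and Aspn, Cenpu with Primpol, Mis12 with Derl2, Ncapg with Lcorl and Ncaph2 with Tymp and Sco2. Ncapd2 overlapped the small RNA gene Scarna10 on its own strand. The share of all genes with such overlaps was not computed, so the count of 13 does not set the members apart. Expected counts were whole numbers, within 0.005 counts, in both libraries for 35 of 50 members and for 64.0% of protein-coding genes of mean TPM of at least 10. Of the 15 members without whole counts, 10 had such an overlap, so their levels are less certain.

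In the promoter windows a CHR match was found in 23 of 49 member windows, 46.9%, against 13.4% of 13072 windows of detected protein-coding genes and 17.6% of 21263 windows of all protein-coding genes. Within 50 bases of the start site it was found in 32.7% of member windows, against 3.48% of windows of detected genes. A CCAAT box was found in 69.4% of member windows, against 38.2% for detected genes, and both elements together in 36.7% of member windows, against 5.68%. The E2F motif (TTTCGCGC or TTTGGCGC) was found in 6.12% of member windows, against 1.45%. The GC box (GGGCGG) differed less, with 73.5% of member windows, against 63.0%. The median GC content was 60.0% in member windows and 61.0% in those of detected genes. Both strands were searched, none of these motifs is contained in another of them, and the shares are descriptions with no test.

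In the windows printed above, the CHR began 16 bases after the RefSeq start in Cenpa, 24 bases after it in Spc25 and 7 bases after it in Ttk. Smc2 had 2 CHR matches, of which the downstream began 26 bases after the start. CHR matches were unevenly placed among the complexes, with 75.0% of 8 condensin windows, 45.7% of 35 kinetochore, checkpoint and shugoshin windows, and 16.7% of 6 cohesin windows, where Pds5b was the only gene with a match. The CHR of Ncapd3 lay in a second window, 30241 bases downstream of the GENCODE start. Taking for each gene the window nearest that start, a CHR was found in 5 of 7 condensin genes, 15 of 31 kinetochore, checkpoint and shugoshin genes and 1 of 6 cohesin genes. With so few windows these shares are imprecise. The 22 members with a CHR in any window had a median of 61.4 TPM and the 22 without had 45.5 TPM, and their ranges overlapped widely, from 30.5 to 257 TPM and from 13.3 to 347 TPM. The highest member, Zwint, was among those without. For Stag1 the RefSeq start lay 45650 bases downstream of the start of the gene in GENCODE, so its window may not be the promoter used here.

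**Figure D5:**
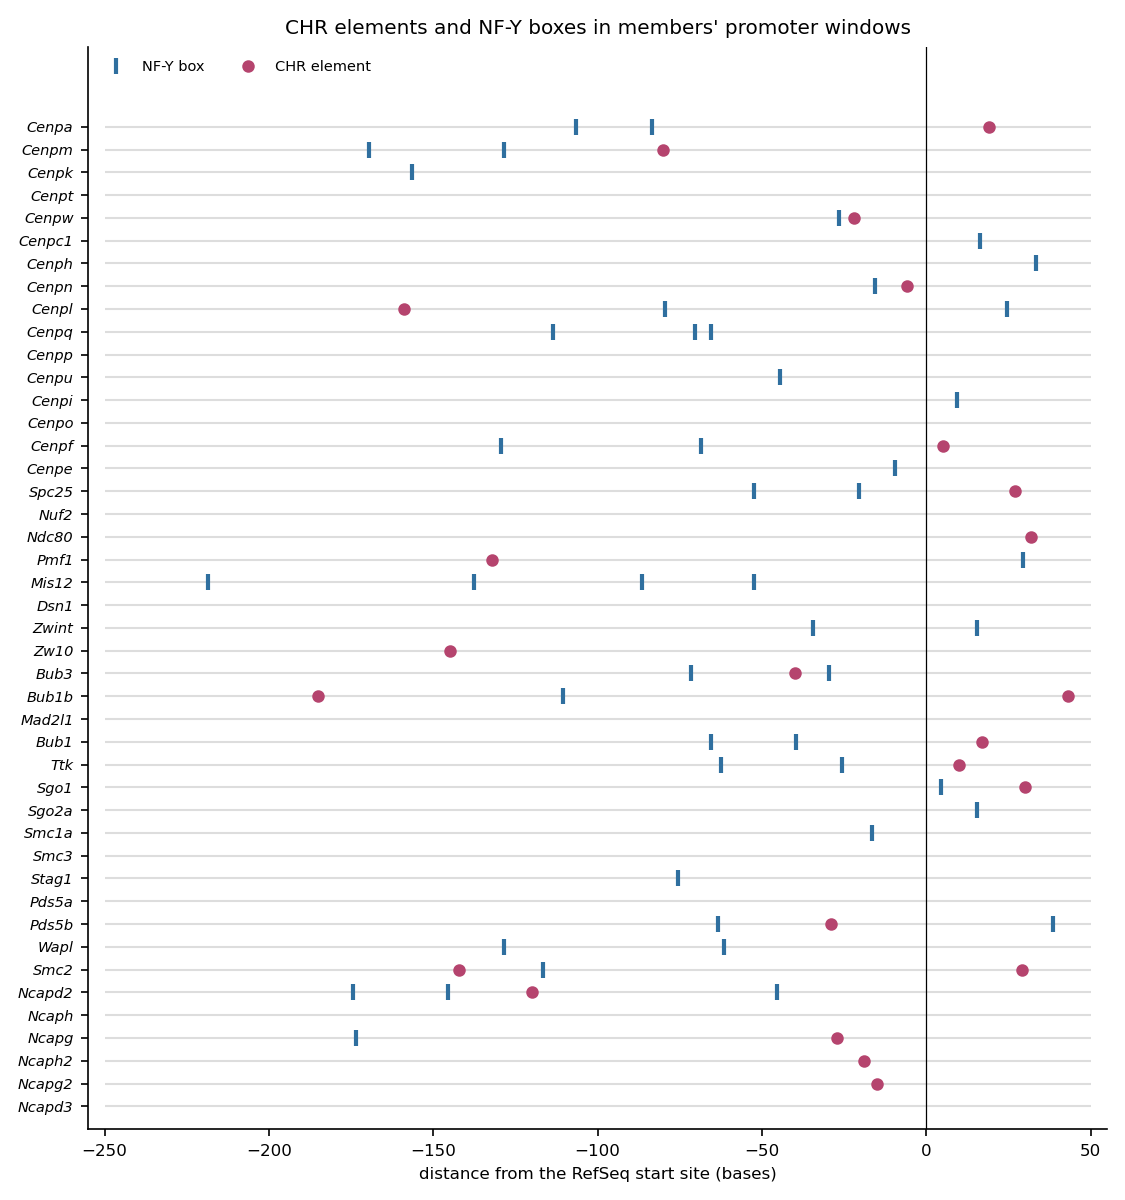
Position of CHR elements (circles) and NF-Y (CCAAT) boxes (bars) in the promoter window of each of the 44 members with a sequence, in bases from the RefSeq start site, taking the window nearest the GENCODE start where a gene had several. CHR elements cluster around the start site in many kinetochore, checkpoint and condensin genes, and the cohesin rows hold a single CHR, in Pds5b.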

How the data were processed

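PolyA RNA of 2 libraries, each a pool of embryos, was measured by RNA sequencing with oligo-dT priming, per the labels' protocols. The deposited tables hold expected counts (reads estimated per gene or transcript by the authors, not normalised), TPM and FPKM values scaled by the authors per library, and a posterior mean TPM that was treated as a score deposited by the authors. They use mm10 with GENCODE M21 (main) or M4 (alternative), per the deposited notes that accompany each library. The aligner, quantifier and strand setting were not given in the sources used here.

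Counts over genes summed to 33373843 (pool 1) and 34406648 (pool 2). Those over ERCC spike-ins summed to 1240711 (pool 1) and 1167338 (pool 2). Numbered entries that name no gene were left out and held 5.74e-05% of counts in pool 1 and 9e-05% in pool 2. Whether the pools came from separate litters is not stated, so their spread may be partly technical. Expected counts were rounded and scaled by TMM over 19063 genes averaging 10 counts or more (edgeR 4.0.16), with a prior count of 1. Size factors of DESeq2 1.42.0 and ERCC totals were alternatives. Ratios have exact binomial 95% intervals, and floors are the TPM of 3 counts. Both reflect counting error alone, because PCR duplicates were not told from separate molecules. Python 3.11.15, pandas 2.3.3, scipy 1.17.1 and R 4.3.3 were used, and the ratio step was tested on simulated data.

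The members and lists were chosen with earlier results of these data known. Every member could be named. The rule for other names took all genes of the short lists, the top transcript of each member, the 8 members with the smallest coding share, the 5 with the largest change between annotations and the 5 at each end of the pool ratio. Cenpu-208, Nsl1-201, Smc4-207, Smc4-201 and Smc2-201 were chosen after their values were seen. Protein sequences were not used here.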

Additional observations from a re-analysis of the deposited data

How the results depend on the processing

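Detection of all 50 members held with the M4 tables, posterior mean TPM, coding transcripts only, a limit of 5 TPM, and either pool alone. Their median TPM was 49.6 with M4, 48.6 over coding transcripts, and 52.0 to 52.8 in single pools. Scaling to ERCC totals turned the median log2 ratio to -0.085, left 5 members higher in pool 1 (Bub1b, Ttk, Ndc80, Ncapd3 and Smc4) and put 1, Cenpw, past 0.32 in size. That scaling also moved the median of the 9495 genes averaging 10 TPM or more, to -0.14. Ratios of TPM + 1 put 1 member, Cenpu, past 0.32. On the log2(TPM + 1) scale, condensin I minus condensin II was 1.15 with M4 and 0.99 over coding transcripts. Stag2 minus Stag1 was 0.79 over coding transcripts, and cohesin core minus inner kinetochore 0.89 with M4 and 0.61 over coding transcripts. The cause was not tested. In single pools these differences were 0.65 to 0.68, 0.14 to 0.22, and 0.68 to 0.73. With DESeq2 size factors or no count filter, the median log2 ratio moved by less than 0.07, the median half-width of the members' counting intervals. With either, 42 members stayed higher in pool 1 and no member passed 0.32. A pseudocount of 0.1 and FPKM moved the condensin, Stag and cohesin differences by less than their SD over the pools. Single members moved by over 1.5-fold in 3 cases with M4 and in 10 over coding transcripts. No paired analysis was possible because the labels give 1 group. With 2 pools, a level is known only within the spread shown.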
